A study of Solanum tuberosum with 22 samples.

Results

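Potato microtubers (Solanum tuberosum), the small tubers that form on plantlets in tissue culture, were compared at 20 and at 10 days after tuber induction was observed. The comparison was defined by sample labels, and it rests on 4 of the 22 hybridizations of the series, 2 replicates at each of the 2 times. All microtubers grew in continuous darkness at 20 °C on a hormone-free induction medium with 8% sucrose. The replicates came from 2 microtuber populations, per the labels. The spread in the main tests below was estimated from the replicates of all times together, over the 10 microtuber arrays. It is therefore not the spread between the populations at 10 and 20 days alone. The labels do not say whether a replicate number marks the same population at each time, and the main fit did not pair the samples. The labels used here name neither the cultivar nor the number of microtubers in a sample.

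Each array was hybridised with the total RNA of 1 sample, labelled with Cy5, and with a Cy3-labelled pool of RNA from the 5 in vitro times, which were 2, 5 and 10 days and then 20 and 30. The deposited values are log2 ratios of the 2 channels, so a difference of 1 between samples is a 2-fold change and the common pool cancels in it. Which channel is the numerator is not stated. Sample over pool is likely, because a sample that is 1 of 5 equal parts of a pool cannot exceed it by more than 2.32 on the log2 scale, and 6 values lay above this bound against 568 as far below its negative. Higher and lower below follow that reading. The lowest correlation between arrays, all of the same dye orientation, was -0.63, between the first replicates of 2 and 20 days. The RNA is from whole microtubers, so fewer cells of a type and less RNA per cell cannot be told apart.

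A tuber begins as the swollen tip of a stolon, in which cells divide and enlarge and sucrose is turned into starch and storage proteins. As the organ ages, it moves from growth towards storage and later towards dormancy. Gibberellin opposes tuber formation, and enzymes that inactivate it act early in the process. Polyamines, oxylipins made from fatty acids by lipoxygenases, and bitter steroidal glycoalkaloids are other products of this tissue. Culture in the dark on high sucrose supplies carbon from the medium in place of leaves.

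Of 32448 spots on the array, 18071 had a value on all 4 arrays. Values covered 57.6% to 65.7% of the spots of an array. Of all spots, 1630 carried 1 gene, 180 carried several and 30638 carried none in the platform annotation. The named ones represented 430 genes, of which 404 could be tested, each as the mean of its measured spots. The replicates of 10 days correlated at 0.605 over spots and those of 20 days at 0.778. The 20 day arrays spread more widely, with SDs of 0.483 and 0.445 against 0.26 and 0.321 at 10 days. Within an array, correlations between duplicate spots ranged from 0.918 to 0.973.

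Between 10 and 20 days more genes fell than rose. Of the 404 genes, 72 passed an adjusted p of 0.05 by limma with Benjamini-Hochberg adjustment over all genes (17.8%), and 24 of them were higher at 20 days (5.94%) and 48 lower (11.9%). With quantile normalization of the 10 arrays, which stretches the narrower 10 day arrays, 36 genes passed, 16 higher and 20 lower. As deposited, 1 gene rose and 6 fell by at least 2-fold, and the median change over all 404 genes was -0.052. The most marked falls among genes with a known role were in proteinase inhibitor II, alcohol dehydrogenase, hydroperoxide lyase and a glycoalkaloid glycosyltransferase. With quantile normalization the change of the glycosyltransferase was -0.16 and did not pass (limma adjusted p = 0.535). The rises were led by genes with only a locus number, a phospholipase C, a DnaJ co-chaperone, an alpha-amylase and a lipoxygenase.

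Over single spots the balance depended on the scaling. Of 18071 spots, 730 passed the threshold (4.04%), 214 higher (1.18%) and 516 lower (2.86%), and 3685 had an unadjusted p under 0.05. With quantile normalization 93 spots passed, 50 higher and 43 lower, so that 53.8% were higher in place of 29.3% with the values as deposited. All 730 spots had the same sign in both replicates, as did 11665 (64.6%) of the spots measured. A change of at least 2-fold was found in 52 higher and 141 lower spots, and a change of at least 2 on the log2 scale in 6 and 17.

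**Figure D1:**
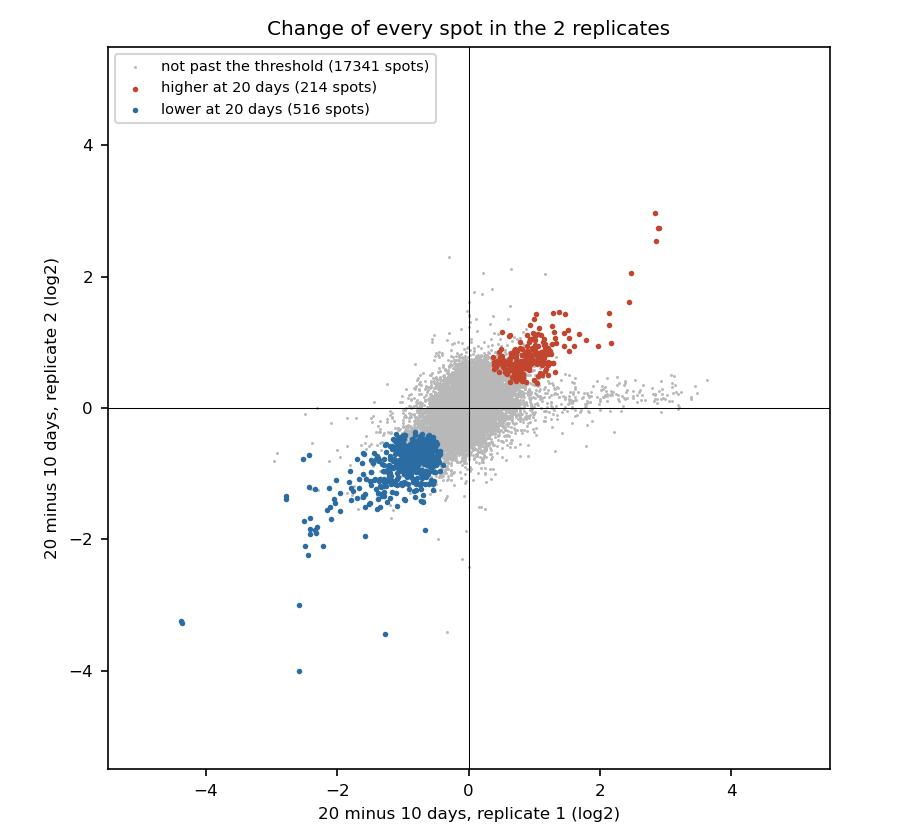
Log2 change from 10 to 20 days of each of 18071 spots in replicate 1 (horizontal) against replicate 2 (vertical), with the 214 higher and 516 lower spots that passed the threshold in colour. The coloured spots lie in the 2 corners where both replicates have the same sign, and over all spots the changes of the replicates correlated at 0.531.

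The 2 replicates did not weigh equally. Changes in replicate 1 had an SD of 0.453 over spots and those in replicate 2 of 0.365. Over the 404 gene means they correlated at 0.713. Without the first 20 day array no gene passed (0 of 404 by limma, with 47 spots of 18071), without the second 68 genes did, and without the first or second 10 day array 35 or 24 did. Of the 38 called genes named by rule in the text below, none kept its call without the first 20 day array, where their smallest adjusted p was 0.0565.

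Among the higher genes, 6 have a readable name. Phospholipase C plc3, which cuts a membrane phosphoinositide into a pair of signal molecules, had log2 ratios of 0.03 and -0.10 at 10 days and 1.06 and 0.76 at 20 days. Both 20 day arrays lay well above both 10 day arrays, with a rise of 0.94 ± 0.15 (SE, n = 2 per time; limma adjusted p = 0.00646). Arrays of the 2 times that did not overlap, as here and for genes below, were found for 61.6% of all 404 genes. The gene plc3 was the only riser among the 19 measured genes of kinases, calcium and phospholipase signalling, where 5.94% of all genes rose.

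The DnaJ gene, coding for a partner of the Hsp70 chaperone in protein folding, went from 0.16 and -0.23 to 0.92 and 0.61. The groups did not overlap, and the rise was 0.80 ± 0.18 (SE; limma adjusted p = 0.0178), with all 4 of its spots higher and 2 of them past the threshold singly. A late embryogenesis abundant gene of the same list, Lea, of a family known from drying seeds, changed by 0.78 without passing (limma adjusted p = 0.094), and its groups overlapped.

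Alpha-amylase AMYA1, an enzyme that cuts starch into shorter chains, was at 0.05 and -0.50 at 10 days and at 0.58 and 0.53 at 20 days. The 20 day arrays were nearly equal and the 10 day arrays were not. Its rise was 0.78 ± 0.18 (SE; limma adjusted p = 0.0202). The opposite direction was seen for dpeP, the disproportionating enzyme that transfers glucan stretches between short chains, which fell by 0.58 ± 0.15 (SE; limma adjusted p = 0.0279) from 0.08 and 0.24 to -0.60 and -0.22. The other 7 of 9 measured starch genes did not pass, among them the phosphorylase glgP (-0.28) and the starch synthase GBSS-II (-0.38), and the median of the 9 was -0.132.

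Lipoxygenase POTLX-3, which adds oxygen to polyunsaturated fatty acids, rose by 0.67 ± 0.12 (SE; limma adjusted p = 0.00796), from 0.09 and 0.07 to 0.88 and 0.63. Hydroperoxide lyase HPL, which cleaves the hydroperoxides that lipoxygenases make, moved the other way, from 0.24 and 0.48 to -0.56 and -0.26. Its fall was 0.77 ± 0.18 on the log2 scale (SE; limma adjusted p = 0.0194), and it missed the threshold when only spots with a value on all 10 arrays were kept (0.0501). The other 2 genes of this list did not pass with the values as deposited. Their changes were 0.02 for LOX-H1 and -0.24 for CYP74D2, which codes for a divinyl ether synthase. With quantile normalization 2 genes of the list fell past the threshold, HPL (limma adjusted p = 0.0134) and either LOX-H1 or CYP74D2.

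Spermidine synthase SpdSy and S-adenosylmethionine decarboxylase SAMDC act in one pathway, the second supplying the aminopropyl donor that the first uses to make spermidine. SpdSy went from 0.12 and 0.07 to 0.58 and 0.41, a rise of 0.40 ± 0.12 (SE; limma adjusted p = 0.0466). SAMDC went from 0.14 and 0.41 to -0.45 and -0.25, a fall of 0.63 ± 0.15 (SE; limma adjusted p = 0.0247). The rise of SpdSy lay near the threshold and missed it with array medians at 0 (0.0554) and with the 4 arrays fitted alone (0.0681). With quantile normalization it was 0.28 and did not pass (limma adjusted p = 0.169). METK1, which codes for the S-adenosylmethionine synthetase that feeds this pathway, was higher at 20 days on all 11 of its spots, with a change of 0.50 that did not pass (limma adjusted p = 0.0569).

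UDP-glucose 4-epimerase STUGE45, which interconverts the glucose and galactose forms of the sugar nucleotide used for cell walls, stood at 0.05 and 0.01 at 10 days and 0.76 and 0.34 at 20 days. The rise of 0.52 ± 0.16 (SE; limma adjusted p = 0.0485) was the only call among 7 genes of sucrose and sugar nucleotides, whose median was 0.057. A second epimerase, STUGE51, changed by 0.02, and sucrose synthase SS16, the enzyme that splits sucrose in tubers, by 0.17. Neither passed the threshold. STUGE45 itself lost its call with array medians at 0 (adjusted p = 0.0547) and with quantile normalization (adjusted p = 0.112).

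The other 18 of the 24 higher genes carry only a locus number, so no role is given for them. LOC102588776 had the largest rise, 1.25 ± 0.22 (SE; limma adjusted p = 0.00646), from -0.17 and -0.20 to 1.36 and 0.77. LOC102600559 went from 0.08 and -0.06 to 1.23 and 0.78, a rise of 1.00 ± 0.22 over its 6 spots. On both genes the first 20 day array was the higher one. LOC102592687 rose by 0.93, LOC102577891 by 0.87, LOC102587932 by 0.85, LOC102577511 by 0.70, LOC102577483 by 0.65 and LOC102577904 by 0.62. LOC102577511 and LOC102577483 did not pass with quantile normalization (adjusted p = 0.0917 and 0.101).

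**Figure D2:**
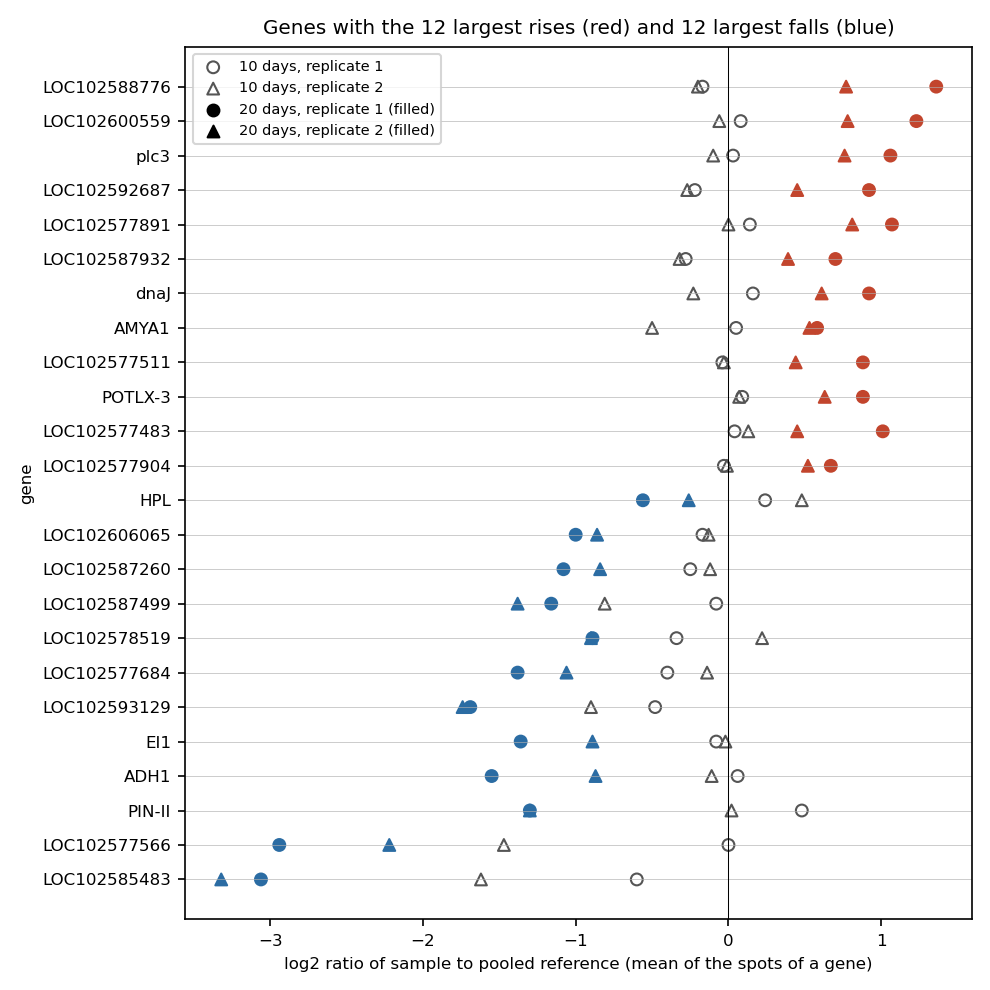
Log2 ratio to the in vitro pool on each of the 4 arrays (open symbols 10 days, filled symbols 20 days, circles replicate 1, triangles replicate 2) for the 12 genes with the largest rise and the 12 with the largest fall. For all 24 genes, which were chosen by their change on these arrays, both 20 day values lie on one side of both 10 day values. This held for 61.6% of all genes tested. The largest change is that of LOC102585483, with a change of -2.08.

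The largest falls were in 2 genes with only a locus number. LOC102585483 was at -0.60 and -1.62 at 10 days and at -3.06 and -3.32 at 20 days, a change of -2.08 ± 0.34 on the log2 scale (SE; limma adjusted p = 0.00646). LOC102577566 stood at 0.00 and -1.47 and then at -2.94 and -2.22, a change of -1.84 ± 0.46 (SE; limma adjusted p = 0.0308). The 10 day replicates of each gene differed by more than 1 on the log2 scale, yet neither reached the 20 day values. With quantile normalization the fall of LOC102577566 did not pass (-1.78, adjusted p = 0.173).

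Proteinase inhibitor II (PIN-II), an inhibitor of digestive proteases that potato makes in tubers and in wounded leaves, fell by 1.55 ± 0.33 (SE; limma adjusted p = 0.016). Its gene mean was 0.48 and 0.02 at 10 days and -1.30 on both arrays at 20 days. The 8 spots did not act as one. Of them, 6 fell, with changes from -2.30 to -1.86, while the other 2 spots changed by -0.05 and 0.04. PIN-II was the only measured gene of the storage protein and protease inhibitor list. Patatin, the main storage protein, had a value on 0 of its 12 spot measurements at each time, and the Kunitz inhibitor KTI-C on 0 of 28, so neither could be compared.

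Alcohol dehydrogenase ADH1, which turns acetaldehyde into ethanol in fermentation, went from 0.06 and -0.11 to -1.55 and -0.87. The fall was 1.19 ± 0.20 (SE; limma adjusted p = 0.00646), and both its spots passed. GAPDH, the glycolytic glyceraldehyde 3-phosphate dehydrogenase, fell by 0.51. With quantile normalization ADH1 was the only gene of its list past the threshold. The other 5 genes of glycolysis and fermentation did not pass, with changes from -0.15 (LDH-2, lactate dehydrogenase) to 0.26 (GPI, glucose 6-phosphate isomerase), and the list's median was -0.134.

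EI1, whose annotation gives no role, went from -0.08 and -0.02 to -1.36 and -0.89, a fall of 1.07 ± 0.17 (SE; limma adjusted p = 0.00646). Both 20 day arrays lay clearly below both 10 day arrays. The remaining genes among the 12 largest falls have only locus numbers: LOC102593129 fell by 1.02, LOC102577684 by 0.95, LOC102578519 by 0.84, LOC102587499 by 0.83, LOC102587260 by 0.78 and LOC102606065 by 0.78. Of the 12 spots of LOC102606065, 10 passed the threshold. Of the 11 spots of LOC102587499, 2 passed, and the changes of its spots ran from -1.308 to -0.005. Of the 4 locus numbers named first, none passed with quantile normalization, where the adjusted p lay between 0.0545 and 0.271.

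Sterol and glycoalkaloid genes fell in 2 of 3 cases, where 11.9% of all genes fell. SGA, a glycosyltransferase that adds a sugar in the synthesis of potato glycoalkaloids, was already below the pool at 10 days, at -0.73 and -0.84, and stood at -1.62 and -1.46 at 20 days. All 4 of its spots fell, and the gene mean fell by 0.76 ± 0.11 (SE; limma adjusted p = 0.00646). The sterol side chain reductase StSSR1 fell by 0.67, from -0.11 and 0.16 to -0.56 and -0.73, and StSSR2 changed by -0.35 without passing. With quantile normalization the change of SGA was -0.16 (adjusted p = 0.535).

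Of 4 cell wall genes, 2 fell, where 11.9% of all genes did. PEST2, a pectin methylesterase that removes methyl groups from wall pectin, went from -0.38 and -0.51 to -1.30 and -1.0, and fell by 0.71 ± 0.13 (SE; limma adjusted p = 0.00796). The xyloglucan endotransglucosylase xth1, which cuts and rejoins wall xyloglucan during growth, fell by 0.50 (limma adjusted p = 0.0279). XEGIP1, an inhibitor of a xyloglucan-cutting enzyme measured by 1 spot, changed by -0.82 with an adjusted p of 0.0796. The list's median was -0.605 against -0.052 over all genes, and with quantile normalization none of the 4 passed.

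In the cell cycle and cytoskeleton list, beta-tubulin TUBB1, a subunit of microtubules, fell by 0.71 ± 0.21 (SE; limma adjusted p = 0.0403). Its values were 0.03 and -0.25 at 10 days and -0.69 and -0.96 at 20 days. Actin AC97 changed by 0.02, and the cyclins that drive entry into the cell cycle by -0.17 (CYCD3.2) and -0.24 (CYCD3.3). None of these 3 passed, and TUBB1 did not pass with quantile normalization (adjusted p = 0.179).

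In the mitochondrial list 3 of 14 genes fell and none rose, where 11.9% of all genes fell, and the list median was -0.174. With quantile normalization none of the 14 passed. The uncoupling protein UCP, which lets protons back across the inner membrane, fell by 0.42 ± 0.10 (SE; limma adjusted p = 0.0251) from -0.21 and -0.19 to -0.68 and -0.56. Malate dehydrogenase mMDH, an enzyme of the citric acid cycle, fell by 0.60, and formate dehydrogenase FDH by 0.58. The alternative oxidase AOX changed by 0.13 without passing. UCP missed the threshold with the 4 arrays fitted alone (0.0508).

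Besides plc3, 3 of the 19 signalling genes changed, all lower, where 11.9% of all genes fell. The calcium-dependent protein kinase CDPK2 fell by 0.51 ± 0.11 (SE; limma adjusted p = 0.0183), from 0.00 and 0.08 to -0.59 and -0.35. The mitogen-activated protein kinases StMPK1 and StMPK2 fell by 0.40 and 0.37. The remaining 15 genes did not pass, and the list's median was -0.142. With quantile normalization 1 of the 19 fell, CDPK2.

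Polyphenol oxidase PPO, the enzyme that browns cut tubers, was above the pool on both 10 day arrays, at 0.67 and 0.78, and near it at 20 days, at 0.03 and 0.06. The fall was 0.68 ± 0.17 (SE; limma adjusted p = 0.0251). Dehydroascorbate reductase DHAR, which regenerates the antioxidant ascorbate, followed the same course, from 0.51 and 0.65 to 0.01 and -0.01, a fall of 0.58 ± 0.17 (SE; limma adjusted p = 0.0419). PPO was the only call among 3 phenylpropanoid and flavonoid genes, and DHAR among 5 redox genes. A second gene for the latter enzyme, DHAR2, changed by -0.02, and the difference between DHAR and DHAR2 was not tested.

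Gibberellin 2-oxidase GA2OX1, which inactivates gibberellins, went from 0.49 and 0.58 to -0.08 and 0.17. Its fall of 0.49 ± 0.14 (SE; limma adjusted p = 0.0397) was the only call among 6 hormone and tuberization genes. BEL5, a transcription factor whose mobile RNA promotes tuber formation, changed by 0.06. The auxin response repressors IAA2 and IAA3 changed by -0.19 and -0.15, and the ethylene receptor gene ERS by -0.30, none passing. The highest change in the list was 0.48, which did not pass either, and the list's median was -0.166.

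In amino acid metabolism, cysteine synthase CS-B fell by 0.53 ± 0.10 (SE; limma adjusted p = 0.0089), from -0.22 and -0.30 to -0.81 and -0.79, with 4 of its 10 spots past the threshold. GCVT, a part of the glycine cleavage system, fell by 0.58. The other 14 of 16 genes did not pass, and the list's median of 0.028 was close to that of all genes. Among 8 transcription factors the DNA-binding protein WHY1 fell, by 0.49 ± 0.11 (SE; limma adjusted p = 0.0183), from -0.34 and -0.26 to -0.80 and -0.78, while its relative WHY2 changed by 0.12. With quantile normalization none of the 16 amino acid genes and none of the 8 transcription factors passed.

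No gene passed the threshold in 5 lists. In the photosynthesis list, which also serves as the marker list of green tissue, 0 of 8 genes passed, with a median of -0.094, and transketolase TK came nearest (-0.70, limma adjusted p = 0.052). TK passed under several alternatives, with an adjusted p of 0.0176 with the 4 arrays alone, 0.0178 with the replicate number as a block and 0.0439 to 0.0495 with array medians at 0, array weights, all 10 arrays required or the median of its spots. The vacuolar processing enzyme VPE2, which matures storage proteins, changed by 0.34 (limma adjusted p = 0.0569) and passed with the block (0.0453). Its gene mean was 0.11 and 0.17 at 10 days and 0.48 and 0.49 at 20 days. The changes of its 4 spots ran from -0.19 to 0.75, with 3 higher and 1 past the threshold singly. The translation factor eIF5A5 changed by 0.27, the potassium channel KST1 by -0.22 and the antimicrobial peptide gene sn1 by -0.19, each nearest to the threshold in its own list. A p that misses the threshold does not show that these genes stayed level.

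**Figure D3:**
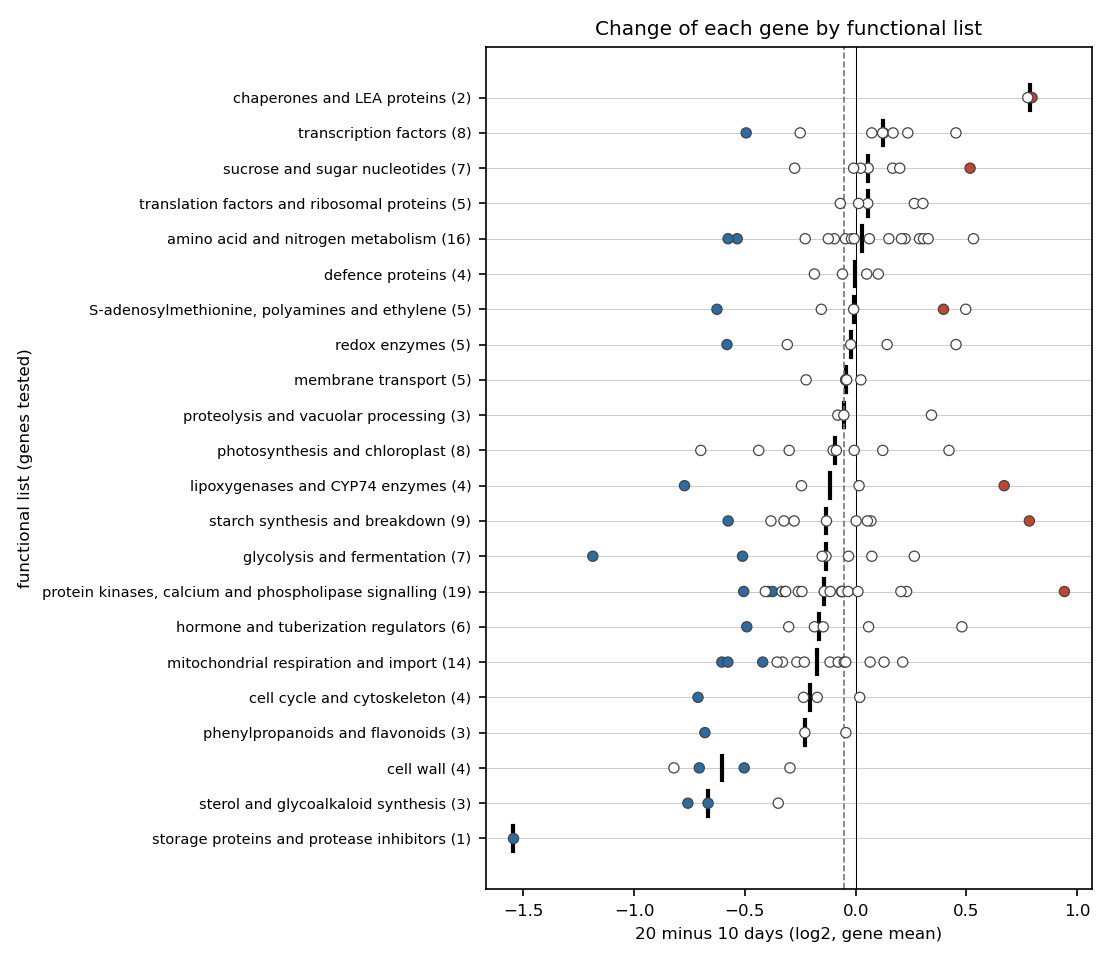
Log2 change from 10 to 20 days of each measured gene, one row of points per functional list, with genes past the threshold in colour and the list median as a bar. Most lists hold genes on both sides of 0, the sterol and glycoalkaloid list and the cell wall list have medians of -0.666 and -0.605, and the single point of the storage protein list is PIN-II.

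A single gene had spots that moved past the threshold in opposite directions. Of 8 spots of the gene Cyp (LOC102586427), 5 fell and 1 rose, with changes from -1.09 to 0.82. Its mean change was -0.50 (limma adjusted p = 0.0568), so the gene mean describes none of the spots well. Of the 393 genes with several spots, 293 had all spots of one sign. Among called genes named by rule, no spot passed singly for dpeP, DHAR, UCP, GA2OX1, CDPK2, TUBB1, SpdSy, LOC102577566, LOC102577511 and LOC102577483. Single spots were adjusted over 18071 spots, and gene means over 404 genes.

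Groups that do not overlap were common: both 20 day arrays lay above or both below the 10 day arrays for 50.6% of spots and 61.6% of genes. All 24 higher and 48 lower genes were of this kind, and the same arrays made their calls. A value at both 10 day arrays and at neither 20 day array was found for 49 spots, and the reverse for 4, and these were not tested.

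The time course places this step among the others. Over 15565 spots with a value on all 10 arrays, 1165 changed from 2 to 5 days (7.48%), 269 from 5 to 10 days (1.73%) and 678 from 10 to 20 days (4.36%) by limma at an adjusted p of 0.05. From 20 to 30 days none did (0%, with 514 at an unadjusted p under 0.05). Over gene means the counts were 75 (18.6%), 30 (7.43%), 72 (17.8%) and 0 (0%, with 13 unadjusted). Of the 678 spots, 223 were higher and 455 lower, while from 2 to 5 days 741 were higher and 424 lower. The order of the steps depended on the scaling: with quantile normalization 1107 spots changed from 2 to 5 days, 1687 from 5 to 10 days, 138 from 10 to 20 days (76 higher and 62 lower) and 0 from 20 to 30 days. The steps differ in length, and neighbouring steps share a pair of arrays.

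**Figure D4:**
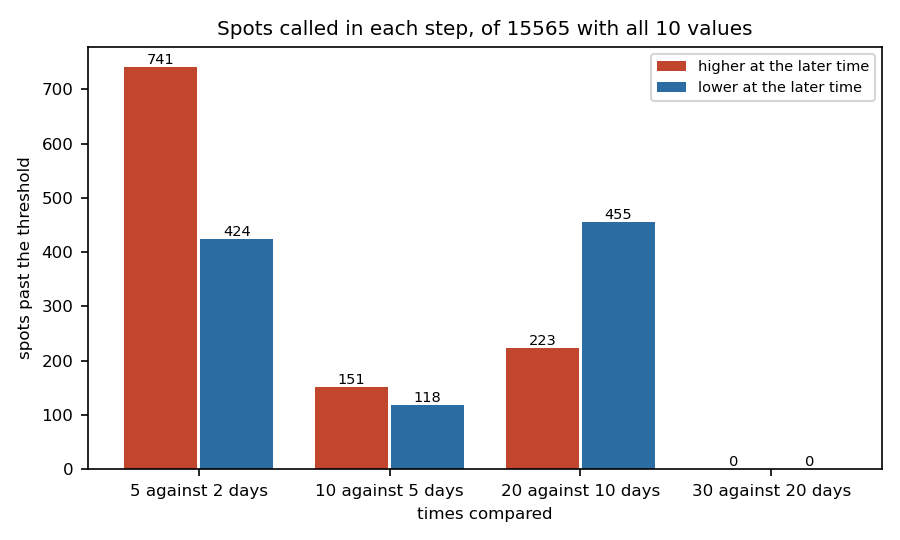
Number of spots past the threshold, of 15565 with a value on all 10 arrays, in each successive step between sampling times, with higher and lower spots apart. The step from 10 to 20 days has 223 higher and 455 lower spots, the step from 2 to 5 days has 741 and 424, and the step from 20 to 30 days has none, all with the values as deposited.

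Whether the change from 10 to 20 days differed from that of another step was tested as a difference of differences. Against the step from 20 to 30 days no spot and no gene passed (0% of each, with 1239 spots and 47 genes unadjusted), so the loss of calls after 20 days does not show that the change stopped. Against the step from 5 to 10 days none passed either (0% of each, with 487 spots and 19 genes unadjusted). Against the step from 2 to 5 days, which shares no array with it, 536 spots (3.44%) and 38 genes (9.41%) differed, and 32 of the 38 genes were lower in the later step. The number of spots ran from 101 without the second 5 day array to 956 without the second 2 day array, and was 1572 with quantile normalization (639 higher and 933 lower). With that scaling 84 spots differed from the step of 5 to 10 days.

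A rise from 2 to 5 days and a fall from 10 to 20 days, both past the threshold, were found for 5 genes: MIP2, SAMDC, PPO, GA2OX1 and DHAR, 10.4% of the 48 lower genes and 9.4% of the 53 that had risen early. From 2 to 5 days 13.1% of all genes rose. The mean log2 ratio of GA2OX1 was -0.45 at 2 days and 0.33 at 5 days, reached 0.54 at 10 days, and then came to 0.04 at 20 days and -0.49 at 30 days. Its mean was highest at 10 days, though the change from 5 to 10 days did not pass (0.20, limma adjusted p = 0.392). DHAR had means of -0.49, 0.34, 0.58, 0.00 and -0.21 over the same times, and PPO of -0.58, 0.01, 0.72, 0.04 and 0.20. The means of both were also highest at 10 days, with a change from 5 to 10 days of 0.24 for DHAR that did not pass (limma adjusted p = 0.415) and of 0.72 for PPO that did (limma adjusted p = 0.0321).

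PIN-II, HPL and ADH1, named above for their later fall, differed between the 2 steps, while their change from 2 to 5 days did not pass. PIN-II had means of -0.05, 0.53 and 0.25 at the first 3 times, and of -1.30 at 20 days and -1.54 at 30 days. The difference was -2.13 for PIN-II, -1.26 for HPL and -1.23 for ADH1 (limma adjusted p = 0.0183, 0.0118 and 0.024). The means of all 3 genes were near or above the pool up to 10 days and below it from 20 days, and the 2 day arrays of PIN-II stood apart, at -0.70 and 0.60.

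Both steps brought a rise in 7 genes, 29.2% of the 24 higher genes and 13.2% of the 53 early risers: POTLX-3, dnaJ, LOC102577891, LOC102588776, LOC102600559, LOC102582373 and LOC102577483. POTLX-3 had means of -0.82, -0.34, 0.08, 0.75 and 0.86 from 2 to 30 days, each above the one before. The mean of plc3 also rose at each time, from -1.06 at 2 days to 0.91 at 20 days and 0.98 at 30 days. A fall in both steps was found for 3 genes, SGA, WHY1 and LOC102580103. They were 6.2% of the 48 lower genes and 13.6% of the 22 early fallers, where 5.4% of all genes fell early. With quantile normalization the later fall of SGA and that of WHY1 did not pass (limma adjusted p = 0.535 and 0.25). SGA had means of 0.63, 0.12 and -0.79 at the first 3 times, and of -1.54 at 20 days and -1.71 at 30 days. Over all 404 genes the changes of the 2 steps correlated at 0.114, a description across genes, which are not independent replicates.

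**Figure D5:**
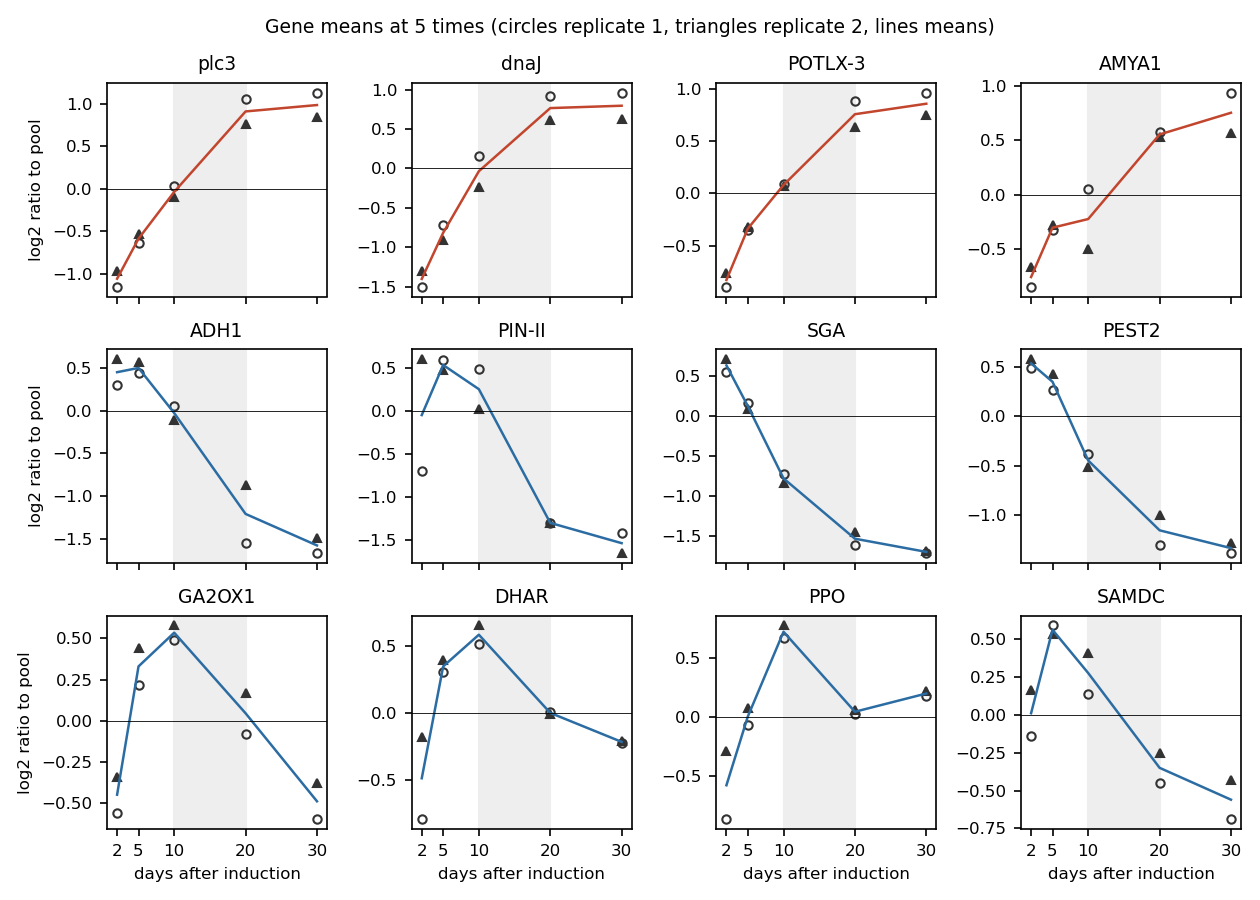
Mean log2 ratio to the in vitro pool against days after induction, from 2 to 30, with replicate 1 as circles, replicate 2 as triangles and the step from 10 to 20 days shaded, for 12 genes named in the text. With the values as deposited, plc3 and POTLX-3 climb to 20 days, SGA descends from 2 days on, and GA2OX1, PPO and DHAR are highest at 10 days.

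The change from 20 to 30 days of the 24 higher genes had a median of 0.10 and ranged from -0.15 to 0.29. That of the 48 lower genes had a median of -0.04 and ranged from -0.53, for GA2OX1, to 0.42. None passed (smallest limma adjusted p = 0.793), and these values share the 20 day arrays with the comparison that chose the genes.

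Over the arrays the genes most like LOC102588776 were POTLX-3 and LOC102577891, with Pearson correlations of 0.997 and 0.994. The nearest to plc3 were the same 2 genes, at 0.997 and 0.993, and to LOC102600559 dnaJ and LOC102582373, at 0.99 and 0.988. Among the falls, LOC102585483 was nearest to LOC102587499 and cr7 (0.984 and 0.982), LOC102577566 to brittle1 and ADH1 (0.993 and 0.971) and PIN-II to LOC102589666 and LOC102602834 (0.969 and 0.966). LOC102577566 had values on 8 of the 10 arrays, none of them at the first replicate of 2 or 5 days. These values describe likeness over arrays that share 1 reference, chosen as the highest among at least 380 genes.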

How the data were processed

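RNA of microtubers was measured on 2-colour arrays, Cy5 sample against Cy3 pool, per the labels. The authors deposited log2 ratios, and per the submitters' processing notes used limma, version not given. How spots were background-corrected, normalized and filtered is not stated in the sources used here. Taken back to ratios, all values are multiples of 0.01 (tolerance 0.002 on the log2 scale). With array medians of 0 to 0.029, no further centring was applied.

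Spots with a value on all 4 arrays of 10 and 20 days were tested, and spots of 1 gene were averaged. A mean per time was fitted with limma 3.58.1 in R 4.3.3 over the 10 microtuber arrays, which share 1 estimate of the spread, with moderated two-sided tests, Benjamini-Hochberg adjustment over all rows and a threshold of 0.05. The steps were tested on spots valued on all 10 arrays. The scripts were tested on simulated data. The number of arrays limits the precision.

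Named genes are the 12 largest rises and 12 largest falls past the threshold with one sign in both replicates, and in each of 22 functional lists the best gene each way, or the nearest if none passed. Others were chosen after their values were seen. The members and lists were chosen with earlier results of these data known. Gene names come from the platform annotation, matched to RefSeq for 430 of 430 genes. The 12 in vivo samples were not analysed here. Alternatives were array medians at 0, quantile normalization, a replicate block, array weights, other spot filters, the 4 arrays alone, and each replicate left out.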

Additional observations from a re-analysis of the deposited data

How the results depend on the processing

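None of the 44 genes named by rule turned its direction under any alternative run. Other genes named in the text were not followed one by one. With quantile normalization the balance of spots turned from more lower to more higher. The medians of 4 lists also turned from below to above 0 with that scaling (defence proteins, redox enzymes, proteolysis, and S-adenosylmethionine and polyamines). Of 730 spots past the threshold from 10 to 20 days, the count moved by over 1.5 times with only the 4 arrays fitted (160), quantile normalization (93), a fold of at least 2 (193) and single arrays left out (22 without the second 10 day array to 774 without the second 20 day array, with 54 and 47 without the first of each). It lay between 665 and 1011 otherwise. With the 4 arrays alone 154 of the 160 spots, and with quantile normalization 90 of the 93, were among the 730. Gene means past the threshold numbered 72, 36 with quantile normalization, and 0 to 68 with single arrays left out. The labels do not say that a replicate number marks a shared batch, and deviations of same-numbered samples correlated above 0.1 in 4 of 10 pairs of times (-0.18 to 0.493), so the numbers were not taken to pair the samples. With the replicate number as a block 1011 spots and 88 genes passed, 722 of the spots shared. The difference from the step of 2 to 5 days (536 spots) moved to 1572 with quantile normalization and 101 to 956 with single arrays left out. With quantile normalization 1687 in place of 269 spots passed from 5 to 10 days, and 138 in place of 678 from 10 to 20 days among spots valued on all 10 arrays. The difference from the step of 5 to 10 days (0) moved to 84 with quantile normalization, and that from the step of 20 to 30 days (0) to between 0 and 24 with single arrays left out. Of the 38 called genes named by rule, 15 lost their call with quantile normalization, 3 with array medians at 0, 2 with the 4 arrays alone, 2 with all 10 arrays required, and 16, 18, 38 and 6 without the first and second 10 day and the first and second 20 day array. Of the genes named by rule as not passing, and apart from single arrays left out, TK passed under 6 alternatives, Cyp under 3 and VPE2 under 1. Signals over background were not used, so what dim spots limit was not tested.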

Other observations

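A group of spots chosen after their values were seen differed between the replicates. In 145 spots the change from 10 to 20 days was above 1.5 on the log2 scale in replicate 1 and within 0.6 of 0 in replicate 2. The other way round this held for 6 spots. A replicate 1 change below -1.5 with a replicate 2 change within 0.6 of 0 was found in 11 spots. The median log2 ratio of the 145 spots was -0.86 on the first and -0.12 on the second 10 day array. It was 1.3 on the first and 0.06 on the second 20 day array. None of the 145 passed the threshold by limma, and 1 of them carries a gene, where 7.27% of all spots with a value on the 4 arrays do. By spot number, 80 of the 145 (55.2%) fall in 2 remainder classes modulo 26, which hold 8.3% of all spots with a value on the 4 arrays. These classes were picked as the fullest among the same 145 spots, which raises the contrast. The array layout was not used, so whether the classes mark positions on the array was not tested. The part of the 145 spots in the results above was not tested.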
